A study of Mus musculus with 70 samples.

Results

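Lungs of mice at postnatal day 6 that lacked Cic-L were compared with lungs of WT mice, across every gene expressed in them. The members were chosen by their labels alone, as the 8 lung samples of genotype Cic-L-KO and the 8 lung samples of genotype WT, which makes 16 of the 70 samples of the series. The series also holds 8 lung samples of genotype Cic-S-KO, together with cortex and cerebellum from animals of 12 weeks of the same 3 genotypes. The WT samples are a pool of littermates from both knockout lines. The labels do not say which line a WT animal came from, how the alleles were made, or in which cells the gene was deleted, and they give no treatment. All lung samples carry batch number 1 in the labels. Nothing in the labels says that the samples of a group came from separate animals, so p-values measure the spread between these samples.

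Capicua, the product of Cic, is an HMG-box repressor that acts with the ataxin proteins Atxn1 and Atxn1l and is switched off by receptor tyrosine kinase signalling through ERK. Its best known targets are the ETS factors Etv1, Etv4 and Etv5 and feedback inhibitors of ERK signalling of the Dusp, Spry and Spred families. The gene makes a long protein, CIC-L, and a short one, CIC-S, which start at different promoters and share the DNA-binding part. In the first postnatal week the mouse lung divides its air sacs by septation, type 1 cells flatten to form the gas exchange surface, and proliferation of the tissue is high. Matrix proteases and elastic fibres are remodelled at that time, and mice with less Capicua activity are known for defects of this step.

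RefSeq (GRCm38.p6) gives Cic 2 start sites on the plus strand of chromosome 7, at 25267699 and 14480 bases downstream at 25282179. The counts are summed over the whole gene, so they cannot separate the isoforms and do not check which animals lack CIC-L. Cic stood at 128 to 157 CPM (counts scaled to the size of each library, with TMM factors) in WT, with a median of 136. In Cic-L-KO it stood at 131.2 to 148.2 CPM, with a median of 132. The groups overlapped, and the log2 fold change was -0.04 (SE 0.05, adjusted p = 0.681, edgeR). In lungs lacking Cic-S the gene stood at 149 to 183 CPM.

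Total counts ran from 21022959 to 27606935 per WT library and from 17798655 to 26270280 per Cic-L-KO library, and 23138 to 24762 genes had at least 1 count. Replicates 1 to 4 of each genotype carried 4538 to 7188 counts of Y-linked genes. Replicates 5 to 8 carried 0 to 3 such counts, so both groups held 4 libraries of each kind. Cic-L-KO replicate 2 stood apart in skeletal muscle transcripts, with a summed 192.6 CPM of 10 marker genes against 5.70 to 13.005 in the other 15 libraries. Without it 785 genes passed the test described next. Lung markers were high in all 16 libraries, as with Ager, a surface receptor of alveolar type 1 cells, at 1264 to 1849 CPM.

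Of 16695 tested genes, 817 differed between Cic-L-KO and WT at an adjusted p under 0.05 (4.89%), of which 437 were higher in Cic-L-KO (2.62%) and 380 lower (2.28%). The changes were mostly small. The genes that passed had a median size of change of 0.33 on the log2 scale, and 33 of them rose and 11 fell by more than 1. In 98 tested genes every Cic-L-KO library was above every WT library (0.587%), and in 45 every one was below (0.27%). Leaving out WT replicate 6 lowered the number of genes that passed to 517, and leaving out WT replicate 5 lowered it to 522.

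**Figure D1:**
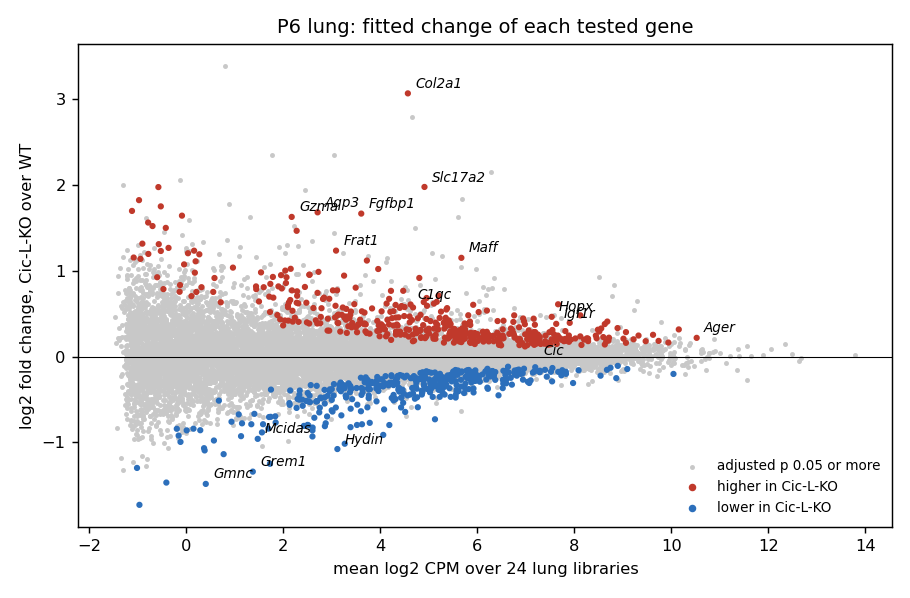
Each point is 1 of 16695 tested genes, with its mean log2 CPM over the 24 lung libraries on the x axis and its fitted log2 fold change, Cic-L-KO over WT, on the y axis. The 437 genes that passed the test upward are red and the 380 that passed downward are blue. Col2a1 stands furthest above 0 among the genes that passed, at 3.07, and Cic lies close to 0.

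Col2a1 (ENSMUSG00000022483.17, chromosome 15, 97975602 to 98004695, minus strand, GRCm38), which encodes the chain of type II collagen, the main collagen of cartilage, had the largest change among the genes that passed and the smallest p. It stood at 3.95, 5.60 and 7.72 CPM (lowest, median and highest) in WT and at 43.5, 49.6 and 53.1 CPM in Cic-L-KO. The groups lay far apart, and the Cic-S-KO libraries, at 11.9 to 23.0 CPM, lay between them without touching either. The log2 fold change over WT was 3.07 (SE 0.13, adjusted p = 1.01e-15, edgeR), and the log2 difference from Cic-S-KO was 1.55 (adjusted p = 3.06e-09, edgeR). Of 13 tested chondrocyte markers only Col2a1 passed, beside 4.89% of all tested genes. Of the 13 markers, 9 had values above 0 and 4 below, and their median log2 fold change was 0.10. Among the 4 below 0 were Sox9, the transcription factor that directs cartilage formation, at -0.07, and Col11a1, another cartilage collagen, at -0.20. Acan, Matn1 and Comp, which encode matrix proteins that define cartilage, were at or near 0, at no more than 0.702, 0.125 and 0.501 CPM in any of the 16 libraries. Other members of the list were clearly present, such as Matn4 at 71.2 to 84.3, Hapln1 at 15.6 to 30.6 and Sox5 at 14.5 to 24 CPM.

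Fgfbp1 (ENSMUSG00000048373.8, chromosome 5, 43978858 to 43981779, minus strand), a secreted carrier that releases fibroblast growth factors from the matrix, had the next smallest p. It stood at 4.35, 6.74 and 9.47 CPM in WT and at 17.3, 21.5 and 27.1 CPM in Cic-L-KO, with no overlap. The log2 fold change was 1.67 (SE 0.12, adjusted p = 4.28e-10, edgeR). Against WT the other knockout had 0.27 (adjusted p = 0.134), and the direct difference between the knockouts was 1.40 (adjusted p = 2.03e-08, edgeR).

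Slc17a2, a phosphate and anion transporter, had 10.4, 12.2 and 26.7 CPM in WT and 46.4, 52.9 and 75.9 CPM in Cic-L-KO. The highest WT library, replicate 3, lay well above the other WT libraries and still below every Cic-L-KO library. Its log2 fold change was 1.98 (SE 0.17, adjusted p = 1.52e-07, edgeR). Slc39a2, a zinc importer, had 7.22, 8.86 and 10.9 CPM in WT and 17.0, 18.8 and 22.9 CPM in Cic-L-KO, a change of 1.12 (SE 0.10, adjusted p = 9.38e-08, edgeR). Both genes were also higher than in Cic-S-KO, by 1.47 (adjusted p = 1.08e-05) and 0.80 (adjusted p = 1.51e-05, edgeR).

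Frat1, an inhibitor of GSK3 that favours WNT signalling, had 2.73, 5.69 and 7.42 CPM in WT and 10.5, 13.7 and 16.4 CPM in Cic-L-KO, a log2 change of 1.24 (SE 0.14, adjusted p = 1.48e-06, edgeR). Cldn6, a tight junction protein of embryonic epithelia, had 1.89, 2.81 and 4.003 CPM against 3.67, 6.15 and 8.92 CPM, and the groups overlapped in 1 library. Areg, a ligand of the EGF receptor, had 1.77, 3.21 and 4.56 CPM against 3.54, 6.05 and 9.93 CPM and also overlapped in 1 library. Their log2 fold changes were 1.00 and 1.02 (adjusted p = 0.000408 and 0.00848, edgeR). In all 3 genes the direct difference from Cic-S-KO passed as well, with log2 values of 1.07, 0.86 and 0.84. Areg had 0.42 in the libraries with Y-linked reads alone (adjusted p = 0.529) and 1.65 in those without (adjusted p = 0.0245, edgeR), and the test of that difference over all genes gave an adjusted p of 0.801. Over the 104 named genes that passed, 25 moved by more than 1.5 times in at least 1 of these sets of libraries and 0 changed sign.

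**Figure D2:**
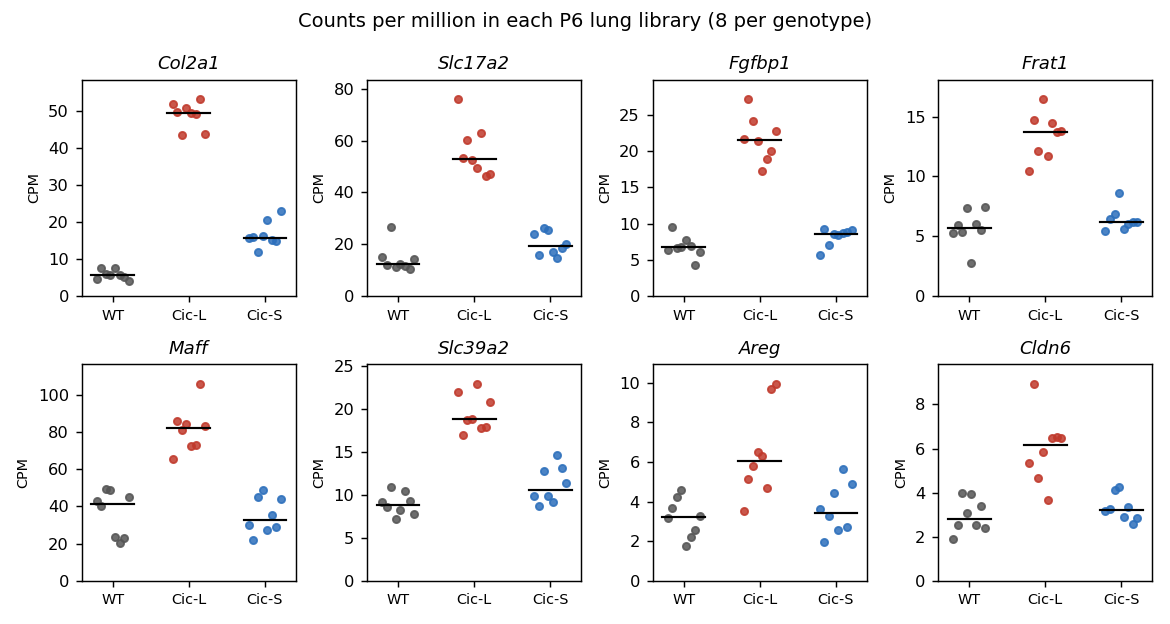
CPM on a linear axis from 0 in each of the 8 WT, 8 Cic-L-KO and 8 Cic-S-KO lung libraries for 8 genes that were higher in Cic-L-KO, with the median of each group as a bar. The Cic-L-KO points sit above every WT point in 6 of the panels, and Col2a1 is the panel in which Cic-S-KO also leaves the WT range entirely.

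A further set of genes with small p combined modest size with clear separation. Nceh1, a neutral cholesterol ester hydrolase, rose from 43.0 to 53.8 CPM in WT to 68.6 to 86.1 CPM in Cic-L-KO, a log2 change of 0.61 (SE 0.06, adjusted p = 1.52e-07, edgeR). Ppm1l, a protein phosphatase, changed by 0.71, Cybrd1, a ferric reductase, by 0.92, Batf, an AP-1 family factor of immune cells, by 0.77, Lmo7, a junctional adaptor, by 0.41, and Zfp365, a zinc finger protein, by 0.67. In each of these genes all 8 Cic-L-KO libraries were above all WT libraries, beside 0.587% of all tested genes. They were chosen by small p in the same libraries, so their separation is not a separate result.

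The remaining large increases were mostly in genes of low level, and their values in Cic-S-KO are given beside them. Both knockouts are set against the same WT libraries. Mmp12, the elastase of macrophages, stood at 0.823 to 3.74 CPM in WT and 3.89 to 7.86 CPM in Cic-L-KO (log2 fold change 1.47, adjusted p = 0.0185, edgeR), beside 1.55 in Cic-S-KO. Gzma, a granzyme of cytotoxic lymphocytes, stood at 0.966 to 3.34 CPM in WT and 1.78 to 10.004 CPM in Cic-L-KO (1.63, adjusted p = 0.0189), beside 1.72 in Cic-S-KO. Aqp3, a water and glycerol channel of basal and squamous epithelium, had 1.68 (adjusted p = 0.0225) beside 2.26 in Cic-S-KO, and it no longer passed without WT replicate 6 (1.61). Ifit3, an interferon-induced gene, had 1.02 (adjusted p = 0.0265) beside 0.87 in Cic-S-KO (adjusted p = 0.028, edgeR). It no longer passed in Cic-L-KO when any of WT replicates 1, 2 and 6 or Cic-L-KO replicates 3 and 6 was left out, with values of 0.95 to 1.03. None of these 4 differed between the knockouts by the test, with log2 differences of -0.08, -0.09, -0.58 and 0.15 and adjusted p from 0.386 to 0.924 (edgeR).

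Among genes that Capicua is known to repress, 4 of 19 tested rose, beside 2.62% of all tested genes, and 0 fell. Fitted values ran from -0.39 to 1.15, with 14 above 0 and 5 below. Without Cic-L-KO replicate 2, 4 rose and 2 fell. A block for replicate number also gave 4 and 2, and DESeq2 gave 4 and 1. The median log2 fold change of the list was 0.09 beside 0.00 over all tested genes. Maff (ENSMUSG00000042622.14, chromosome 15, 79346621 to 79359076, plus strand), a small Maf factor that lacks an activation domain, changed most. It stood at 20.5, 41.4 and 49.3 CPM in WT and at 65.4, 82.2 and 106 CPM in Cic-L-KO with no overlap, and its log2 fold change was 1.15 (SE 0.20, adjusted p = 0.00139, edgeR). Maff had -0.06 in Cic-S-KO, and the knockouts differed by 1.21 (adjusted p = 0.000335, edgeR). Dusp4, a phosphatase that inactivates ERK in the nucleus, stood at 19.95 to 31.6 CPM in WT and 29.2 to 40.3 CPM in Cic-L-KO (0.45, adjusted p = 0.00311), beside -0.09 in Cic-S-KO.

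Etv4 had the reverse order between the knockouts. It stood at 23.4 to 31.9 CPM in WT, 25.4 to 39.5 CPM in Cic-L-KO and 39.4 to 53.8 CPM in Cic-S-KO, and its log2 fold changes over WT were 0.40 (adjusted p = 0.00792) and 0.74 (adjusted p = 1.26e-05, edgeR). The value in Cic-L-KO was lower than in Cic-S-KO by the direct test (-0.34, adjusted p = 0.00988, edgeR). Ccnd2, a D-type cyclin, passed narrowly at 0.21 (adjusted p = 0.0318, edgeR), and leaving out any of 7 single libraries ended that call, with values of 0.18 to 0.21. The other listed targets did not pass. Etv5 had 0.01, Etv1 0.18, Spry2 and Spry4 0.03 each, and Dusp6 -0.08.

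Of the proteins that work with Capicua, 1 of 10 tested genes passed, beside 4.89% of all tested genes. Atxn1 had 38.3, 47.4 and 53.6 CPM in WT and 55.1, 60.0 and 61.8 CPM in Cic-L-KO, so all 8 Cic-L-KO libraries exceeded all WT libraries. The log2 fold change was 0.33 (SE 0.05, adjusted p = 0.000408, edgeR). Atxn1l had 119.7 to 148 CPM in WT and 128 to 149 CPM in Cic-L-KO (0.02, adjusted p = 0.851, edgeR). Of 12 tested small Maf and AP-1 genes only Maff passed, and of 11 immediate early genes 0 passed, with 11 of 11 values above 0 and a median of 0.18.

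The promoters of the called genes were searched for the octamers that Capicua binds, TGAATGAA and its variants TGAATGGA, TCAATGAA and TCAATGGA, on both strands of the 300 bases from 250 before to 50 after each RefSeq start. At least 1 match was found in 10 of 311 genes that rose (3.22%) and in 8 of 294 that fell (2.72%), beside 352 of 11651 tested genes with a promoter in the table (3.02%). The shares of both directions lay near that of all tested genes. Among the genes named by rule, Maff and Gmnc held a match, and they are shown because 1 rose and the other fell. The octamer is in capitals, each sequence runs 5′ to 3′ on the strand of its gene, and both are from RefSeq with GRCm38.p6 coordinates. The Maff stretch covers 30 bases around a start, at chr15:79347507-79347536 on the plus strand, and its octamer begins 2 bases before that start. The Gmnc stretch is the 250 bases before a start, at chr16:26991653-26991902 on the minus strand, and its octamer begins 86 bases before it.
Maff: ctgggtttttaTGAATGAAaggaatcctgt
Gmnc: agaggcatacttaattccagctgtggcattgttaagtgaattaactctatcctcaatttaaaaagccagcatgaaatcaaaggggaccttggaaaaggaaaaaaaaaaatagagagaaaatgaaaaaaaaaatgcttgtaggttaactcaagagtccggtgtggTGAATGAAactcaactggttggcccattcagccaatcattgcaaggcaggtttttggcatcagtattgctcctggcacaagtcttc
In the 250 bases before the other RefSeq starts of both genes, and before that of Fgfbp1, none of the 4 octamers was found.

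Genes of the cell cycle were lower in Cic-L-KO. Of 27 tested genes of the list 13 fell, beside 2.28% of all tested genes, and 0 rose. All 27 fitted values were below 0, with a median log2 fold change of -0.30 beside 0.00 over all tested genes. Ccnb1, the cyclin that drives entry into mitosis, had 45.2, 51.0 and 66.1 CPM in WT and 37.0, 38.6 and 48.0 CPM in Cic-L-KO, and the groups overlapped in 1 Cic-L-KO library. Its log2 fold change was -0.45 (SE 0.08, adjusted p = 0.00154, edgeR). Kif11, the kinesin that separates spindle poles, had 47.5 to 64.0 CPM in WT and 33.8 to 44.4 CPM in Cic-L-KO without overlap (-0.48, adjusted p = 0.00214, edgeR). Ccnb2 had -0.35 and Ccna2 -0.37 (adjusted p = 0.00288 and 0.00515, edgeR).

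The others of the list that fell were Foxm1, the transcription factor of the mitotic program, Cenpa, Bub1, Cenpe, Rrm2, Top2a, Ccne2, Kif20a and Cdk1. Genes of DNA replication and S phase were mixed. Mcm2 (-0.09), Mcm7 (-0.05) and Pcna (-0.12) did not pass, whereas Rrm2 and Ccne2, named above, fell. Mki67, the proliferation marker, had -0.31 and missed the threshold (adjusted p = 0.066, edgeR). Outside the list, mitotic genes were among those with the smallest p of the genes that fell. Pbk, a mitotic kinase, had -0.39, Ncapg, a condensin subunit, -0.59, Prc1, which bundles the midzone of the spindle, -0.40, and G2e3, a ubiquitin ligase of the G2 to M transition, -0.39 (adjusted p from 0.000254 to 0.00134, edgeR). In Pbk, Ncapg and G2e3, chosen by small p, all 8 Cic-L-KO libraries were below all WT libraries, beside 0.27% of all tested genes.

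In Cic-S-KO 1 of the 27 cell cycle genes fell against WT, beside 5.73% of all tested genes (15.7% changed in either direction), and the median was -0.07. The direct contrast between the knockouts called 7 of 27 lower in Cic-L-KO and 0 higher, beside 7.31% of all tested genes called lower and 12.2% in either direction. The number that fell in Cic-L-KO against WT lay between 10 and 15 when single libraries were left out. It was 9 with an adjustment for GC content, 17 with a block for replicate number and 17 with DESeq2. In bulk tissue fewer dividing cells and less of these transcripts per cell cannot be told apart. The 4 libraries of each genotype with Y-linked reads alone gave a median of -0.18 and those without gave -0.39.

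Some genes of motile cilia fell. Motile cilia of the airway are beaten by dynein arms on a microtubule axoneme, and multiciliated cells form under the control of Gmnc and Mcidas, which act upstream of Foxj1. Gmnc (ENSMUSG00000068428.7, chromosome 16, 26913553 to 26991652, minus strand) had 0.571, 1.46 and 1.96 CPM in WT and 0.258, 0.509 and 0.870 CPM in Cic-L-KO, and the groups overlapped. Its log2 fold change was -1.48 (SE 0.26, adjusted p = 0.000791, edgeR). Mcidas had 2.09, 2.85 and 3.25 CPM in WT and 0.882, 1.55 and 1.86 CPM in Cic-L-KO without overlap (-0.96, SE 0.17, adjusted p = 0.000853, edgeR).

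Foxj1 itself had 27.3 to 52.2 CPM in WT and 27.95 to 61.6 CPM in Cic-L-KO and did not pass (-0.19, adjusted p = 0.543, edgeR). Hydin, a giant protein of the central pair of the axoneme, fell from 5.18, 10.9 and 14.0 CPM to 2.96, 5.37 and 6.24 CPM with some overlap (-1.08, SE 0.23, adjusted p = 0.0067, edgeR). Cfap44, which encodes an axonemal protein, had 13.5 to 24.3 CPM in WT and 5.85 to 13.02 CPM in Cic-L-KO without overlap (-0.91, adjusted p = 0.0163, edgeR). Cep126, a protein of centrosome and ciliary base, had -0.59 (adjusted p = 0.000427), also without overlap.

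Of 11 tested ciliated cell markers, Hydin fell, Tppp3, a tubulin-binding protein, rose (0.39, adjusted p = 0.0162, edgeR), and the median was -0.15. Without the filter on low counts Tppp3 did not pass (adjusted p = 0.0511, edgeR). Families of axonemal genes, picked after their values were seen, were described in addition. Over all tested genes 2.28% fell and 2.62% rose. Of 11 axonemal dynein heavy chains Dnah12 (-0.80), Dnah10 (-0.80), Dnah2 (-0.45) and Dnah3 (-0.79) fell and Dnah11 rose (0.35), with a median of -0.54. Of 25 tested genes named as cilia and flagella associated proteins 6 fell and 0 rose, with a median of -0.28. They were Cfap99 (-1.07), Cfap46 (-0.81), Cfap74 (-0.71), Cfap61 (-0.70), Cfap54 (-0.68) and Cfap44.

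Of 7 radial spoke genes Rsph4a fell (-0.82), of 5 tektins and of 7 dynein assembly factors 0 passed, and of 14 genes of intraflagellar transport Ift80 fell (-0.24). The genes that fell were long. Over the 61 genes of the ciliary lists other than intraflagellar transport 12 fell and 2 rose, beside 2.28% and 2.62% of all tested genes. The 12 had a median exon length of 11308 bases and the genes that did not pass had 2624. The correlation of log2 exon length with log2 fold change over these 61 genes was -0.388, as a description of genes that share libraries and cells. For the log2 difference between the knockouts it was -0.0387. Over all tested genes divided into 5 equal groups by exon length, the shortest group had a median log2 fold change of 0.06 with 91 genes higher and 16 lower, and the longest had -0.03 with 84 higher and 130 lower. An adjustment for exon length, chosen after seeing the data, removed from each library only the median deviation of genes of similar length. The median change in the longest group was only -0.03, so this adjustment could not remove changes of the size seen here. With it 1 dynein heavy chain was called higher and 4 lower, and 6 Cfap genes lower. The part of exon length in these values was not tested.

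In Cic-S-KO, tested against the same WT libraries, 8 of 11 ciliated markers rose, with a median of 0.80, beside 9.99% of all tested genes that rose. The direct contrast called 48 of the 61 ciliary genes lower in Cic-L-KO and 1 higher, beside 7.31% lower and 4.85% higher over all tested genes. Foxj1 differed by -0.99 (adjusted p = 0.000355) and Mcidas by -1.39 (adjusted p = 6.96e-06, edgeR). In the libraries with Y-linked reads the median of the ciliated list over WT was -0.34, and in those without it was 0.01. Over all genes 0 of 16695 passed the test of such a difference (1004 at an unadjusted p under 0.05, edgeR).

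**Figure D3:**
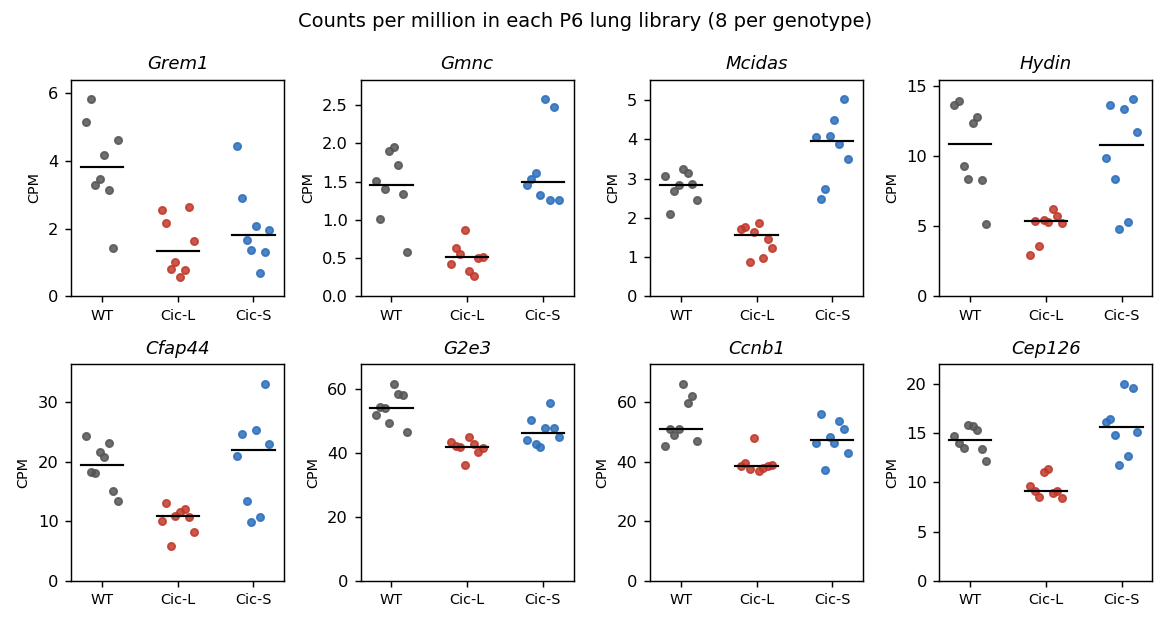
CPM on a linear axis from 0 in each lung library of the 3 genotypes for 8 genes that were lower in Cic-L-KO than in WT, with group medians as bars. All 8 Cic-L-KO points lie below all WT points for Mcidas, Cfap44, G2e3 and Cep126, while Grem1, Gmnc, Hydin and Ccnb1 overlap with WT.

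Of 13 tested markers of alveolar type 1 cells 5 rose, beside 2.62% of all tested genes, and 0 fell, with a median log2 fold change of 0.13. Hopx, a homeodomain cofactor of type 1 cells, had 132, 163 and 177 CPM in WT and 211, 216 and 238 CPM in Cic-L-KO without overlap, a change of 0.46 (SE 0.05, adjusted p = 1.48e-06, edgeR). Ager also separated completely, with 1264 to 1524 CPM in WT and 1526 to 1849 CPM in Cic-L-KO, by 0.22 (adjusted p = 0.0087, edgeR). Gprc5a had 0.33, Akap5 0.25 and Aqp5, the water channel of type 1 cells, 0.25. Cav1, Vegfa and Pdpn, markers of the same cells, had 0.00, -0.09 and 0.02 and did not pass. In Cic-S-KO 1 of the 13 rose and 1 fell, beside 9.99% and 5.73% of all tested genes. The direct contrast called 6 higher in Cic-L-KO, beside 4.85% of all tested genes.

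Of 15 markers of type 2 cells, which secrete surfactant, only Cxcl15, a lung chemokine, passed (0.32, adjusted p = 0.0278, edgeR), and Sftpc, the defining surfactant gene, had 0.02. The call of Cxcl15 ended when any of 6 single libraries was left out, with values of 0.27 to 0.32. Among the other epithelial lists, 0 of 9 club cell markers and 0 of 6 neuroendocrine markers passed. Of 6 basal cell markers Krt14 and Aqp3 rose, beside 2.62% of all tested genes. Krt14 (0.401 to 1.76 CPM in WT, 1.53 to 3.02 CPM in Cic-L-KO) was also the 1 of 4 oesophagus and squamous markers that passed.

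Of 9 markers of the mesothelium, the surface layer of the lung, 4 rose, beside 2.62% of all tested genes, and 0 fell. All 9 values were above 0, with a median of 0.38 beside -0.0009 over all tested genes. Msln, mesothelin, had 108, 158 and 199 CPM in WT and 188, 247 and 270.3 CPM in Cic-L-KO (0.61, adjusted p = 0.000637, edgeR), and 7 of 8 Cic-L-KO libraries exceeded all WT libraries. Krt19, an epithelial keratin, had 0.38 without overlap, Upk1b, a uroplakin, 0.48 and Lrrn4 0.59. In Cic-S-KO 7 of these 9 rose, beside 9.99% of all tested genes. The direct contrast between the knockouts called Upk1b higher in Cic-L-KO (0.41, adjusted p = 0.00229, edgeR) and Gpm6a lower (-0.44). It called 4.85% of all tested genes higher and 7.31% lower.

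Of 14 markers of interstitial macrophages and monocytes C1qc, C1qa, C1qb, Csf1r and Pf4 rose, beside 2.62% of all tested genes, and 0 fell, with a median of 0.34. C1qc, a chain of the first complement component, had 13.5, 16.2 and 20.5 CPM in WT and 20.6, 23.8 and 32.2 CPM in Cic-L-KO without overlap (0.61, adjusted p = 0.00447, edgeR). The calls of C1qb and Csf1r, the receptor for the main macrophage growth factor, ended without any of 11 and 12 single libraries. The list kept between 2 and 5 calls when 1 library was left out, and 2 with an adjustment for GC content. In Cic-S-KO 13 of the 14 rose, beside 9.99% of all tested genes. The direct contrast called 8 lower in Cic-L-KO, beside 7.31%.

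Other immune lists mostly lay above 0 without passing. Their counts stand beside 2.62% of all tested genes that rose in Cic-L-KO and 9.99% in Cic-S-KO. The direct contrast called 7.31% of all tested genes lower in Cic-L-KO. Of 19 T cell and natural killer markers Gzmb and Gzma rose, 19 of 19 values were above 0 and the median was 0.54. In Cic-S-KO 5 of these 19 rose and 0 fell, with a median of 0.62. Of 19 interferon response genes only Ifit3 passed, 19 of 19 were above 0 and the median was 0.66. In Cic-S-KO 5 of them rose and 0 fell, with a median of 0.69, and the direct contrast called 0. Of 18 cytokine and type 2 inflammation genes only Ccl11, the chemokine eotaxin, passed (0.98, adjusted p = 0.0313, edgeR; without any of 7 single libraries it did not), whereas 15 of the 18 rose in Cic-S-KO and the direct contrast called 11 lower in Cic-L-KO. Of 24 chemokines Cx3cl1, Cxcl15 and Ccl11 rose. In Cic-S-KO 17 of the 24 rose and 0 fell, and the direct contrast called 8 lower in Cic-L-KO and 0 higher. Cx3cl1 (0.23) did not pass with the adjustment for GC content (0.18, adjusted p = 0.0701, edgeR).

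No gene passed among 11 neutrophil, 10 alveolar macrophage, 9 B cell, 8 mast cell and basophil, 7 dendritic, 3 eosinophil and 9 MHC class II genes. Their medians were 0.54, 0.22, 0.21, 0.22, -0.03, 0.04 and 0.20. In Cic-S-KO 11 of 11 neutrophil genes rose, beside 9.99% of all tested genes. The direct contrast called 2 of these genes lower in Cic-L-KO, beside 7.31%.

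**Figure D4:**
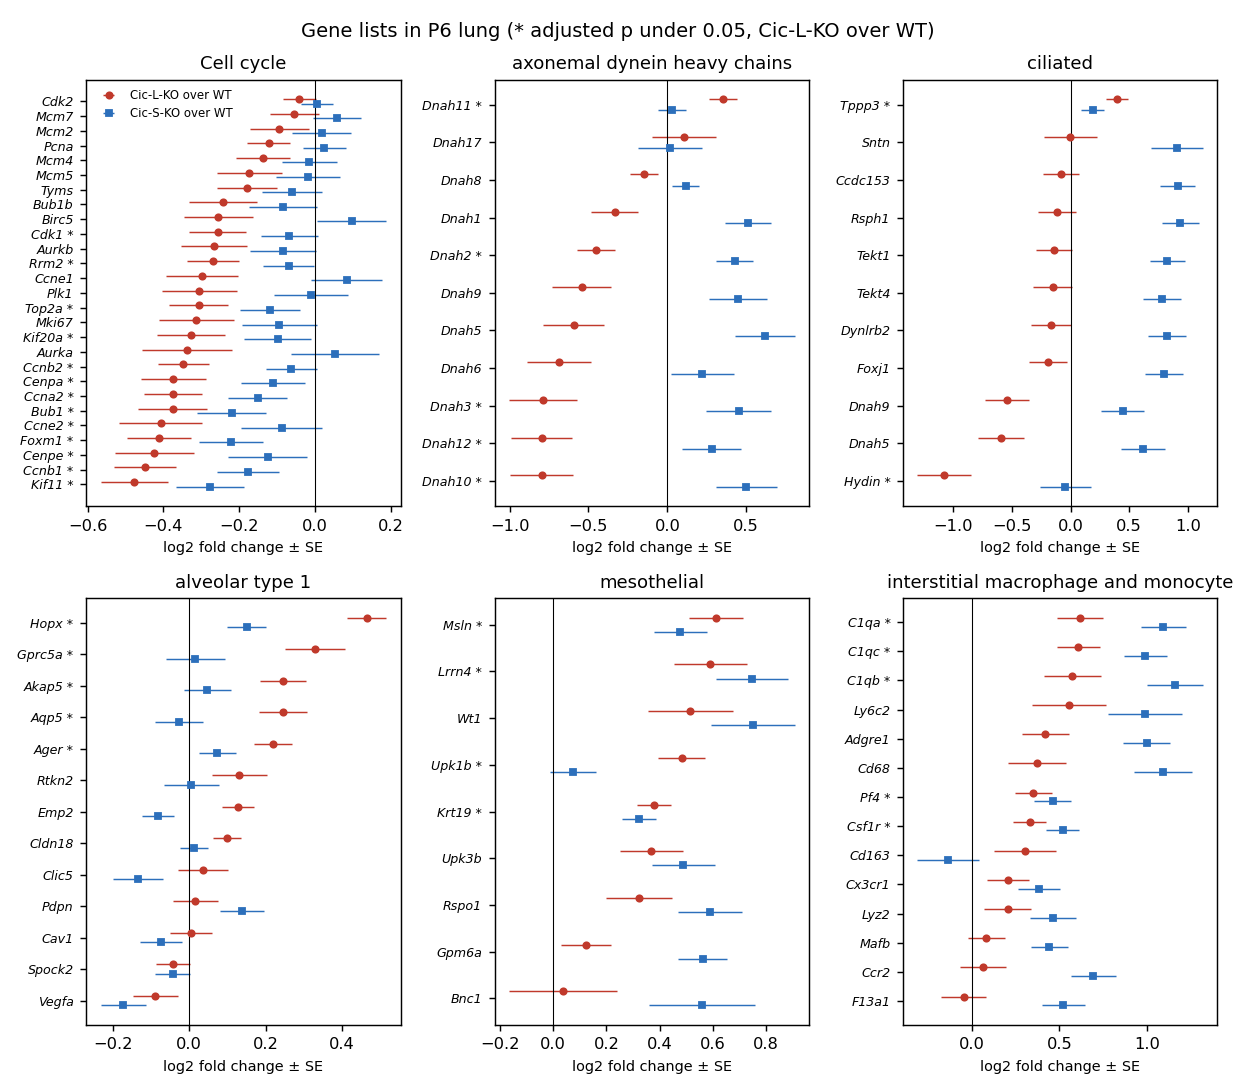
Fitted log2 fold changes over WT with their standard errors for every tested member of 6 gene lists, with Cic-L-KO in red and Cic-S-KO in blue. Both share the WT libraries. An asterisk marks an adjusted p under 0.05 in Cic-L-KO. The red points of the cell cycle list all lie left of 0, and in the ciliated and dynein panels red and blue lie on opposite sides for most genes.

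Genes of the insulin-like growth factor axis rose in 4 of 14 tested members, beside 2.62% of all tested genes, and fell in 0. Their median was 0.08. Igf1r, the receptor, had 152, 169.96 and 209 CPM in WT and 213, 233 and 246 CPM in Cic-L-KO without overlap (0.38, SE 0.05, adjusted p = 7.07e-05, edgeR). Igfbp6, a binding protein that prefers IGF2, had 14.4 to 21.2 CPM in WT and 23.1 to 32.9 CPM in Cic-L-KO (0.58, adjusted p = 7.07e-05, edgeR). Igf2bp3, an RNA-binding protein, had 0.45, and Irs2, an adaptor below the receptor, had 0.42 and lost its call without any of 11 single libraries. The ligand Igf1 had -0.26 and missed the threshold (adjusted p = 0.0603, edgeR). The direct contrast put Igf1r 0.31 above Cic-S-KO (adjusted p = 0.000395).

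In the WNT pathway Notum, a secreted enzyme that inactivates WNT ligands, rose from 5.06 to 7.997 CPM in WT to 8.68 to 13.2 CPM in Cic-L-KO without overlap (0.77, SE 0.11, adjusted p = 9.84e-05, edgeR). Of 35 tested members Wnt7a (0.38) and the receptor Fzd2 (0.21) also rose and the inhibitor Dkk2 fell (-0.93, adjusted p = 0.034), with a median of 0.07. These 3 calls ended without any of 4, 9 and 8 single libraries, with values of 0.33 to 0.37, 0.19 to 0.21 and -0.92 to -0.83. Axin2, a standard target of the pathway, had 0.03. The counts of the list stand beside 2.62% of all tested genes that rose and 2.28% that fell.

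Of 16 FGF signalling genes Fgfbp1 rose and Fgf9, a ligand from mesothelium and epithelium, fell (-0.79, adjusted p = 0.044, edgeR; the call ended without any of 13 single libraries). Of 22 sonic hedgehog and BMP genes Bmpr1b, a type I BMP receptor, fell from 5.98 to 8.35 CPM to 3.89 to 5.62 CPM without overlap (-0.55, adjusted p = 0.00196, edgeR). Its direct difference from Cic-S-KO was -1.004 (adjusted p = 4.7e-07). Grem1, a secreted BMP antagonist, had 1.41, 3.82 and 5.82 CPM in WT and 0.572, 1.33 and 2.63 CPM in Cic-L-KO with overlap (-1.34, SE 0.34, adjusted p = 0.0215, edgeR). Without the filter on low counts Grem1 had an adjusted p of 0.0659 (edgeR) and did not pass. Shh, the hedgehog ligand of lung epithelium, rose by 0.23 (adjusted p = 0.0334, edgeR), which did not hold without any of 10 single libraries. Both lists stand beside 2.62% of all tested genes that rose and 2.28% that fell.

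Collagens and their remodelling moved in few members. Of 36 collagens Col2a1, Col13a1 (0.24), Col24a1 (0.36), Col22a1 (0.46) and Col27a1 (0.25) rose. Among all tested genes 2.62% rose and 2.28% fell. Col6a5, a minor type VI chain, fell from 2.58 to 4.11 CPM to 1.12 to 2.47 CPM without overlap (-0.88, adjusted p = 0.00157, edgeR). The abundant fibrillar genes Col1a1 and Col1a2 had 0.05 and 0.01. Of 23 matrix proteases and inhibitors Adamts9 (0.31), Mmp12 and Mmp13 rose and the aggrecanase Adamts5 fell (-0.42, adjusted p = 0.0126, edgeR). Mmp13, a collagenase, had 0.396 to 1.04 CPM in WT and 0.542 to 3.48 CPM in Cic-L-KO (1.21), and it did not pass without Cic-L-KO replicate 3 (0.90).

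Of 21 elastic fibre genes Ltbp3 (0.22) and Ltbp1 (0.21), which hold latent TGF-beta in the matrix, rose, and Efemp1, a fibulin, fell (-0.33, adjusted p = 0.00165, edgeR). Ltbp3 did not pass with the adjustment for GC content (0.17, adjusted p = 0.0675, edgeR). Of 24 integrins and laminins Lamb2 (0.25), Itgb3 (0.23) and Itgav (0.16) rose. Both lists stand beside 2.62% of all tested genes that rose and 2.28% that fell. Lamb2, a laminin chain of basement membranes, had 304 to 346 CPM in WT and 364 to 442 CPM in Cic-L-KO without overlap (adjusted p = 0.00158, edgeR). Col24a1 lost its call without any of 4 single libraries and Itgav without any of 8.

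Mesenchymal and vascular lists held single changes, beside 2.62% of all tested genes that rose and 2.28% that fell. Pdgfra, the receptor that marks alveolar myofibroblasts and their precursors, rose from 196 to 233 CPM to 230.4 to 285 CPM (0.30, adjusted p = 0.00818, edgeR) and was the only one of 13 alveolar myofibroblast and smooth muscle markers that passed. Of 14 fibroblast markers Col13a1 rose and Meox2, a homeobox factor, fell (-0.29). Of 9 pericyte markers Abcc9 and Kcnj8, the subunits of a potassium channel of pericytes, rose (0.47 and 0.52) and Postn fell (-0.20). Kcnj8 lost its call without any of 6 single libraries, and Postn did without WT replicate 2 or 6 and with the adjustment for GC content (-0.12, adjusted p = 0.215, edgeR). Abcc9 had -0.28 in Cic-S-KO, and the direct difference was 0.76 (adjusted p = 1.08e-05). Of 18 endothelial markers Car4, of the aerocytes that line gas exchange surfaces, rose (0.18), and of 5 lymphatic endothelial markers 0 passed.

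Of the hormone and metabolic lists, Pdk4 (0.53) and Mt1 (0.59) rose among 13 glucocorticoid response genes, beside 2.62% of all tested genes. These calls ended without any of 4 and 10 single libraries. Among 15 circadian clock, 12 retinoic acid and 21 cholesterol synthesis genes 0 passed. In the last, 17 of 21 values were below 0 with a median of -0.15.

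Of tissues that could come along in dissection, Actn3 rose among 7 tested skeletal muscle genes (1.24, adjusted p = 0.00925, edgeR), beside 2.62% of all tested genes. Actn3 still passed without Cic-L-KO replicate 2, the library with the high muscle sum, and Myh3, with 35.6 CPM as its highest Cic-L-KO value, did not pass. The median of the list was 1.59, and 0.10 without that library. Actn3 had 1.93 in the libraries with Y-linked reads (adjusted p = 0.0253) and 0.42 in those without (adjusted p = 0.555, edgeR). The test of that difference gave an adjusted p of 0.801 (edgeR). Among 8 heart, 8 red blood cell, 4 brown fat, 3 thymus and 1 tested thyroid and parathyroid gene 0 passed.

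Of the other genes among the 12 with the largest decrease, Plppr5, a lipid phosphatase related protein known from neurons, fell from 7.01 to 11.6 CPM to 2.22 to 6.602 CPM without overlap (-0.93, adjusted p = 0.00352, edgeR). Macc1, a regulator of the MET receptor gene, had -0.86 (adjusted p = 0.00542), and Gria1, a glutamate receptor subunit, had -0.83 (adjusted p = 0.00507). Spata18 had -1.02 and lost its call without any of 9 single libraries, and the unnamed transcript Gm26671 had -0.84 and lost it without any of 4.

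Among genes with the smallest p that fell, Zfp101, a zinc finger protein, had -0.40 and Uevld, related to ubiquitin conjugation, had -0.27, both without overlap between the groups (adjusted p = 0.000865 and 0.00154, edgeR).

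Near Cic, 2 of 31 tested genes within 0.5 Mb passed (6.45%), 7 of 165 within 5 Mb (4.24%) and 72 of 1379 on chromosome 7 (5.22%), beside 4.89% of all tested genes. Pafah1b3, a subunit of a platelet activating factor hydrolase, lies 0.9 kb beyond the end of Cic, from 25295049 to 25297986 on the minus strand. It had 23.2, 27.1 and 29.4 CPM in WT and 32.9, 35.1 and 43.2 CPM in Cic-L-KO without overlap (0.44, SE 0.06, adjusted p = 0.000113, edgeR). Rabac1, 295.0 kb away, rose by 0.26, and Cyp2s1, 508.3 kb away, fell by 0.42 on the log2 scale but not without WT replicate 6. Spint2 (0.25), Zfp260 (-0.27), Zfp74 (-0.35) and Gm15883 (-1.25) passed within 5 Mb, and each lost its call without any of 6 to 9 single libraries. Gm15883 lies antisense to Cyp2f2, an abundant gene of club cells, and reads of the 2 cannot be told apart without strand.

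In the brain of Cic-L-KO animals, sampled at 12 weeks and in batch 2, part of the lung genes moved in the same direction. Of 379 genes that rose in lung and were tested in cortex, 144 also rose there (38.0%, beside 21.4% of all genes tested in cortex) and 45 fell (11.9%, beside 21.9%; 43.2% changed in either direction). Of 350 that fell in lung, 100 also fell in cortex (28.6%, beside 21.9%) and 63 rose, beside 21.4% of all genes tested there. In cerebellum 142 of 381 rose (37.3%, beside 10.9%; 21.5% in either direction) and 73 of 337 fell (21.7%, beside 10.6%). Tissue, age and batch cannot be told apart, and the difference between tissues was not tested.

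In all 3 tissues 107 genes changed in the same direction, of 14306 tested in each. Of the 373 among these that rose in lung, 69 rose in both brain regions (18.5%, beside 4.96% of all genes tested in the 3 tissues), and of the 333 that fell, 38 fell in both (11.4%, beside 5.89%). The 10 with the firmest calls were all higher, and Col2a1, Maff, Igf1r, Atxn1, Pafah1b3 and Lamb2 were among them. Maff had 1.15 in lung, 2.10 in cortex and 2.51 in cerebellum, and Col2a1 had 3.07, 1.00 and 1.32. Pafah1b3 had 0.44, 1.77 and 1.25. Abca8a, a lipid transporter, had 0.64, 1.72 and 0.61, with 20.8 to 28.7 CPM in WT lung and 29.4 to 40.7 CPM in Cic-L-KO lung. Igf1r had 0.38, 0.51 and 0.38. Abhd4, a lysophospholipase, Tst, a sulfur transferase of mitochondria, and Gpt, an alanine aminotransferase, had 0.26, 0.36 and 0.57 in lung.

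**Figure D5:**
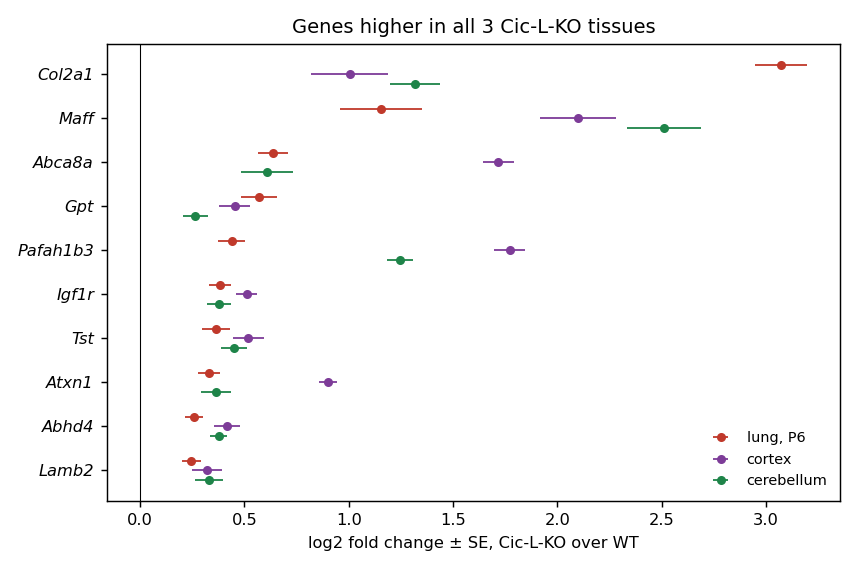
Fitted log2 fold changes with standard errors, Cic-L-KO over WT, of the 10 genes with the firmest calls in the same direction in lung, cortex and cerebellum. All values lie right of 0. Col2a1 is the gene with the largest lung value (3.07), whereas Maff, Pafah1b3 and Abca8a, for example, are larger in at least 1 brain region than in lung.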

How the data were processed

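PolyA-selected RNA-seq libraries of flash-frozen lung were made by the submitters, per the labels' protocols. The table the authors deposited holds unnormalized counts for 50789 Ensembl gene identifiers. STAR 2.7 and the build GRCm38.p6 are named in the submitters' processing notes. The counting program and its strand setting are not given in the sources used here. Where genes overlap on opposite strands (Hopx and Hopxos, Notum and Notumos, Ncapg and Lcorl, for example), counts can hold reads of both. Every column matched 1 sample, and 0 columns had no sample. Names and positions came from GENCODE M21 (GRCm38), in which 50725 identifiers matched ignoring the version.

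Genes were kept by filterByExpr, libraries scaled by TMM, and edgeR (4.0.16, R 4.3.3) fitted a robust quasi-likelihood model of genotype over all 24 lung libraries. All 3 genotypes thus shared 1 estimate of spread. Benjamini-Hochberg adjusted p under 0.05 over all 16695 genes counted as passing. Standard errors were derived from the F statistic. No 2 libraries of a group were identical over 84 pairs. The fit was tested on simulated counts. Cortex and cerebellum were fitted separately.

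Named by rule were Cic, Atxn1 and Atxn1l, the 12 largest changes per direction among genes averaging 1 or more in log2 CPM, the 10 smallest p per direction, list members that passed, calls within 5 Mb of Cic, and the 10 firmest 3-tissue calls. Values of further list members (such as Foxj1, Sox9 or Sftpc) were added to describe their lists. The members and lists were chosen with earlier results of these data known. Alternatives were DESeq2 (1.42.0), other scalings and filters, covariates, a replicate block and leaving out each library. Their effect is given at the end.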

Additional observations from a re-analysis of the deposited data

Results flagged for a closer look

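In 146 groups of 8 values (named genes, totals and marker sums), 12 had 1 library far from the rest of its group, where chance gives about 7.3. Cic-L-KO replicate 8 had the highest Cic at 148.2 CPM (next 136), replicate 5 the highest Aqp3 at 19.01 (next 8.30), replicate 6 the highest Zfp365 at 29.5 (next 25.8), replicate 4 the highest Ccnb1 at 48.0 (next 39.5) and replicate 8 the lowest Uevld at 21.1 (next 23.996). WT replicate 3 had the highest Slc17a2 at 26.7 CPM (next 14.98), and WT replicate 5 the lowest Frat1 at 2.73 (next 5.24) and the lowest Nceh1 at 43.0 (next 48.9). Summed marker levels set apart Cic-L-KO replicate 2 for skeletal muscle at 192.6 CPM (next 13.005), WT replicate 4 for thymus at 46.6 (next 37.9), and replicate 5 of both groups for brown fat, at 14.4 CPM in WT (next 7.35) and 13.7 in Cic-L-KO (next 8.45).

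In 5 of the named genes all Cic-L-KO lung libraries lay on one side of all WT lung libraries and all Cic-L-KO cortex libraries on the opposite side of WT cortex, and the difference was not tested. Among the 88 named genes tested in both tissues, which were chosen on their lung values, 9 lay apart in the same direction in both. Over all 14705 genes tested in both, 7 lay apart in opposite directions (0.0476%) and 18 in the same (0.122%). Ppm1l had 0.71 in lung and -0.31 in cortex, Zfp365 0.67 and -0.23, and Igfbp6 0.58 and -1.15. Mcidas had -0.96 in lung and 1.30 in cortex, and Cfap44 -0.91 and 1.28.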

How the results depend on the processing

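Across the alternatives the number of genes that passed stayed within 1.5 times of 817 except as follows and without WT replicates 5 and 6 (522 and 517). It was 1285 with the replicate block (799 of the 817 among them), 200 where the change also had to reach 0.5 on the log2 scale, 62 with only the libraries that carry Y-linked reads and 181 with only those that do not. Both of the latter are smaller fits and were chosen after seeing the data. It ran from 517 (without WT replicate 6) to 945 (without WT replicate 7) when 1 library was left out. DESeq2 gave 1189, no low-count filter 561, a GC-content adjustment 572 and an exon-length adjustment, also chosen after seeing the data, 886. Atxn1l ran from -0.0025 to 0.042 (without WT replicate 2) when 1 library was left out, and changed sign near 0, at -0.0025 without WT replicate 7, -0.0025 without Cic-L-KO replicate 8 and -0.034 with only the libraries that carry Y-linked reads. Over the 106 named genes and the alternatives planned, 2534 values kept their direction and side of the threshold, 215 kept the direction and lost the call, and the 2 of Atxn1l without 1 library reversed. The labels give no pairing, so the replicate numbers are not taken as one. Same-numbered WT and Cic-L-KO libraries correlated by -0.053 to 0.346 in their deviations (mean 0.160), and 6 of 8 were over 0.1. Libraries of different numbers had a mean of -0.023. After removing the difference between libraries with and without Y-linked reads, which follows the replicate number, same-numbered libraries correlated by -0.138 to 0.243 (mean 0.091). Before that removal, 6 of 8 WT and 4 of 8 Cic-L-KO libraries correlated best with their own number, a hint from the data and not from the design. Such matches were not counted after the removal, so they also hold the difference that follows the replicate number. Under the block 104 of the 106 named genes kept their side of the threshold and 2 lost their call, Mt1 (adjusted p = 0.0665) and Csf1r (adjusted p = 0.0683, edgeR). The GC-content adjustment ended 13 calls (Spint2, Zfp260, Zfp74, Fgf9, Irs2, Wnt7a, Fzd2, Shh, Ltbp3, Cx3cl1, Postn, C1qb and Csf1r). Testing without a low-count filter ended 15 (Ifit3, Grem1, Gm15883, Spata18, Cyp2s1, Irs2, Shh, Itgav, Mt1, Cxcl15, Ccl11, Tppp3, Kcnj8, C1qb and Csf1r). Other scalings moved the median of all genes by less than 0.01. The cause of each shift was not tested. Genes under about 1 CPM, such as Gzmb and Gmnc, rest on few counts.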
